A study of Mus musculus with 42 samples.

Results

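The genes described are 7 targets and regulators of FGF signalling, Spry1, Spry2, Spry4, Spred1, Dusp6, Etv4 and Etv5, out of 21911 protein-coding mouse genes in the annotation. Each locus is the gene body on mm10 extended by 10 kb on both sides, and the peaks of 30 immunoprecipitation libraries that overlap it are its data. The libraries profile chromatin bound by SOX2, β-catenin or LEF1 in cells made in culture from mouse embryonic stem cells of the HM1 (129) strain. All cells, controls included, were grown for 72 h with 10 ng/ml bFGF and with 5 µM LGK974, which blocks the secretion of WNT ligands. The CHIR groups also received the GSK3 inhibitor CHIR99021, which stabilizes β-catenin, on the last day. The paper names cells grown without CHIR epiblast-like and those given CHIR caudal epiblast-like. WT, T/BraKO (T/Bra-/-) and CdxKO (Cdx1/2/4-/-) cells were profiled with CHIR for all 3 factors, and WT cells without CHIR (WT noCHIR) for SOX2 only, in 3 biological replicates per group, or 10 groups. Each genotype is a separate cell line, so line and genotype cannot be told apart. The comparisons ask where the factors lie at these genes in WT cells, and whether their peaks differ without CDX factors, without T/BRA, or without CHIR.

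FGF receptors signal through RAS and the ERK kinases, and the cells answer by switching on brakes on the same pathway. Sprouty proteins (Spry1, Spry2, Spry4) and the related Spred1 damp the signal at the level of RAS and RAF, and Dusp6 is a phosphatase that takes the activating phosphates off ERK. Etv4 and Etv5 are ETS transcription factors that carry the response to FGF to its target genes. All of them are widely used as readouts of FGF activity in the epiblast and primitive streak. SOX2 is a pluripotency and neural transcription factor, LEF1 binds DNA for the WNT pathway, and β-catenin is the co-activator that LEF1 and its relatives recruit.

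The sequences under the site with the best mean rank over all 30 libraries are shown for 6 of the genes, because the peak ranks below refer to these sites. Each run is 200 bases of the plus strand of GRCm38.p6, the build that mm10 stands for, and capitals mark matches to the TCF/LEF motif (CTTTGAA or CTTTGAT, either strand), the only motif searched that these runs hold.
Etv4 intron, chr11:101772610-101772809: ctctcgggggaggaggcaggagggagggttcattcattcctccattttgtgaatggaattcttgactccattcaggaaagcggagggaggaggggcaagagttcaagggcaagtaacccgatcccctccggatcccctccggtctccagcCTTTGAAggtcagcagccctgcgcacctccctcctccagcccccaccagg
Spry1 downstream, chr3:37648726-37648925: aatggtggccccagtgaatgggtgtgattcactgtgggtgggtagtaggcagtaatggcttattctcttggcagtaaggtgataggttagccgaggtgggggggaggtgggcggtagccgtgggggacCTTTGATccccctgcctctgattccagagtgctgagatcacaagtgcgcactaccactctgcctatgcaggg
Etv5 exon, chr16:22412851-22413050: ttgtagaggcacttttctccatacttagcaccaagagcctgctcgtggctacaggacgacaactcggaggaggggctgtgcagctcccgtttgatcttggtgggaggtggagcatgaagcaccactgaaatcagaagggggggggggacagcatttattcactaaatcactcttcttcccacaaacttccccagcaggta
Spry2 upstream, chr14:105897802-105898001: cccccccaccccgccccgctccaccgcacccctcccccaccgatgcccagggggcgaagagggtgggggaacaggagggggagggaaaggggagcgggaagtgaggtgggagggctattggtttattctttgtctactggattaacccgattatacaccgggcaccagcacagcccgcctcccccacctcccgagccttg
Spred1 upstream, chr2:117120027-117120226: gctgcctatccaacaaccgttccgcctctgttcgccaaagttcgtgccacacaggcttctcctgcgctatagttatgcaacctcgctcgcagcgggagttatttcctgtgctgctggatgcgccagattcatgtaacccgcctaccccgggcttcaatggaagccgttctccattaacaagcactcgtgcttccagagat
Dusp6 upstream, chr10:99261621-99261820: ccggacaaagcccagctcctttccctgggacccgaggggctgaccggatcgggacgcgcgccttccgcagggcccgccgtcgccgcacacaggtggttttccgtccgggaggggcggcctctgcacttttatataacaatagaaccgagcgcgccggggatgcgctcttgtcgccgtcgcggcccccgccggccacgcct
The Etv4 window holds the summits of 25 of the 26 libraries with a peak there and the Spry1 window those of all 11. The Spry2 window holds 18 of 19 and the Etv5 window 12 of 16. At Spred1 and Dusp6 the summits lay apart, the window round their mean held 1 of 22 and 0 of 22, and the stretch with the most summits, chosen after seeing the data, is printed instead, with 12 of 22 and 9 of 22. A TCF/LEF match stands in the Etv4 and Spry1 windows, and none of the 6 windows holds the SOX letters CCATTGT or CCTTTGT. GC content ranged from 53% at Etv5 to 70% at Dusp6.

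The lists held between 26940 and 1008922 peaks, so every library was reduced to its 20000 best peaks by q-value, and a rank of 1 is the best. A peak is called here when it is among these 20000. Overlapping called peaks of all libraries were merged into 336178 sites, of which 32079 were reproducible, that is called by 2 or 3 libraries within 1 group or more. The share of a library's called peaks that lay in reproducible sites was 57.3% to 64.7% for SOX2 CdxKO, 46.1% to 64% for T/BraKO and 64.5% to 77.5% for WT noCHIR, but 28%, 27.1% and 52.3% in the 3 SOX2 WT CHIR libraries. It was 47.3% to 68.2% for β-catenin and 10.7% to 18.2% for LEF1. The LEF1 lists thus had the smallest part in reproducible sites. These shares move with several results below, and their part in them was not tested.

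SOX2 and β-catenin peaks were denser in all 7 loci than over protein-coding loci as a whole. Over the 9 CHIR libraries of SOX2, called peaks per 100 kb of locus were 9.36 ± 2.43 (SD, n = 9) at Etv4, 9.16 ± 4.51 at Dusp6, 7.59 ± 5.1 at Spry2, 6.38 ± 3.31 at Etv5, 5.05 ± 2.76 at Spry4, 3.16 ± 3.38 at Spry1 and 2.88 ± 1.24 at Spred1. The same density over all protein-coding loci was 1.11. Neighbours in this order differ by less than their SD. For β-catenin the density was 9.38 ± 5.69 at Spry2, 9.16 ± 5.37 at Dusp6, 7.48 ± 1.98 at Etv4, 5.24 ± 2.16 at Etv5, 4.96 ± 2.7 at Spry1, 3.85 ± 1.3 at Spred1 and 3.48 ± 3.96 at Spry4, beside 1.04 over all protein-coding loci. For LEF1 it fell from 4.05 ± 2.04 at Etv4 to 0.824 ± 0.874 at Spred1, beside 0.965. These 9 libraries pool the 3 genotypes. Over the 7 loci together the SOX2 density was 3.4 ± 1.06 (SD, n = 3) in WT CHIR, 7.02 ± 0.38 in CdxKO and 6.69 ± 0.503 in T/BraKO. Over the 9 libraries Etv5 had the highest mean number of peaks per library, 5 ± 2.6 for SOX2 and 4.11 ± 1.69 for β-catenin. For SOX2 it had 2 ± 2 in WT CHIR, below 2.67 ± 0.577 at Etv4, and 6 ± 1 in CdxKO and 7 ± 1 in T/BraKO. For β-catenin in CdxKO it had 2.67 ± 1.15, below 3.67 ± 1.15 at Spred1. A mean as high as that of Etv5 over the 9 libraries was found at 1.18% and 2.27% of protein-coding genes. For the other members this share was 3.25% at Etv4 to 33.6% at Spry1 for SOX2. For β-catenin it was 3.89% at Spred1 to 18.1% at Spry1 and Spry4. In peaks per library, Spry1 was near the mean of all genes for SOX2, 0.778 beside 0.769.

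For SOX2 and β-catenin, 6 or 7 of the 7 genes carried a called peak in their locus in every group, whereas for LEF1 3 to 5 did. With a peak required in at least 2 of 3 libraries, 7 of 7 genes had one for SOX2 in WT CHIR, CdxKO and WT noCHIR, and 6 of 7 in T/BraKO, where Spry1 did not. The shares of all protein-coding genes were 39.4%, 40.3%, 37.8% and 38.7% in that order. For β-catenin 6 of 7 had a peak in WT, without Spry4, and 7 of 7 in CdxKO and in T/BraKO, beside 36.5%, 35.1% and 34.6% of all genes. For LEF1 the counts were 3 of 7 in WT (Spry2, Dusp6 and Etv4), 5 of 7 in CdxKO and 5 of 7 in T/BraKO, beside 36.2%, 35.3% and 34.6%. In WT cells the LEF1 share of the members was thus close to that of all genes. When all 3 libraries had to hold a peak, the SOX2 count was 3 of 7 in WT CHIR, beside 18.1% of all genes, and 6 of 7 in CdxKO, T/BraKO and WT noCHIR, beside 24.4%, 22.5% and 25.3%. In the gene body alone, without the 10 kb on either side, the β-catenin counts were 3, 3 and 2 of 7 in WT, CdxKO and T/BraKO, beside 21.4%, 20.6% and 20.8% of all genes.

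**Figure D1:**
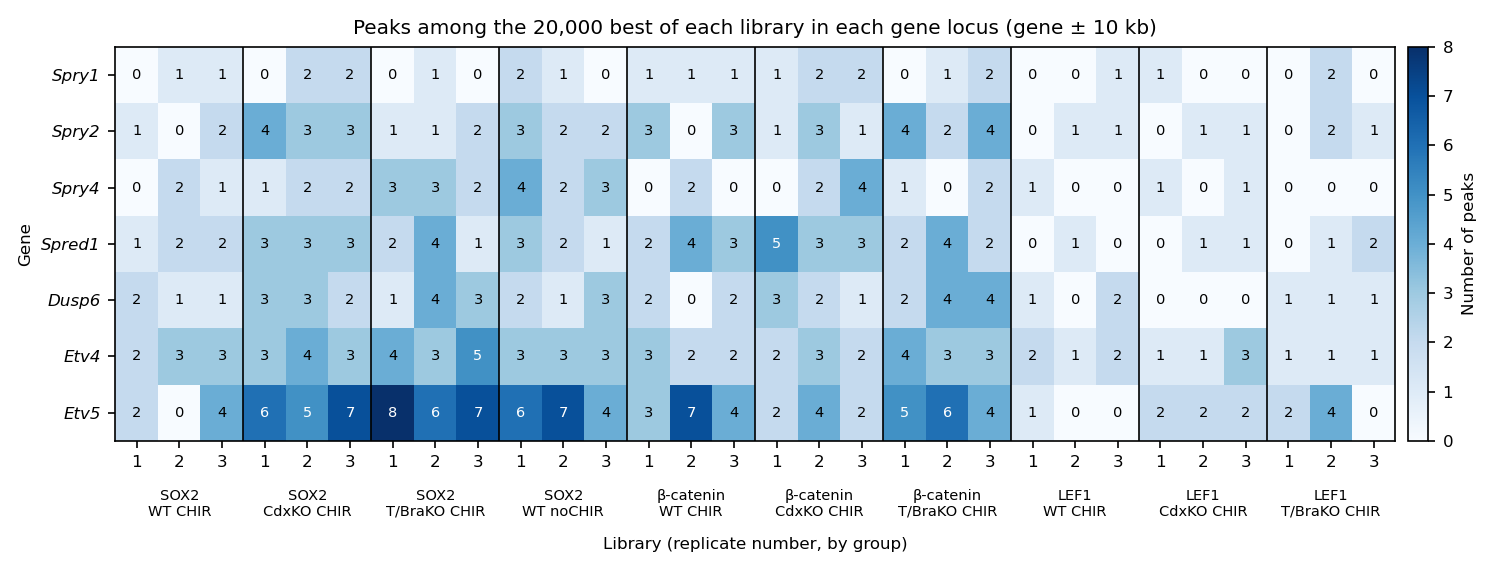
Number of called peaks (among the 20000 best of a library) in each locus, with genes as rows and the 30 libraries as columns, ordered by group and replicate. Etv5 holds up to 8 peaks in a SOX2 library, and the LEF1 columns are the palest.

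The loci held 100 sites, of which 24 were reproducible, and these fell on both sides of the gene starts. Their median summits lay upstream at 10 sites, 8 of them within 3 kb of the start, in introns at 9, downstream of the gene at 3, in a coding exon at 1 and in a 5′ UTR at 1. Etv5 held 9 of the 24, Spry2 4, Etv4 and Spry1 3 each, Spry4 and Spred1 2 each and Dusp6 1. Dusp6 thus had a single reproducible site. Up to 4 called peaks lay in its locus in a library, and several of them could lie inside this merged site. In T/BraKO, β-catenin had 2, 4 and 4 peaks in the locus and called only 1 other site there, in 1 of 3 libraries. SOX2 and β-catenin shared the sites near the starts of Spry2, Spred1, Dusp6 and Etv4, whereas the distal sites behind Spry1 and Spred1 were reproducible for β-catenin and not for SOX2.

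**Figure D2:**
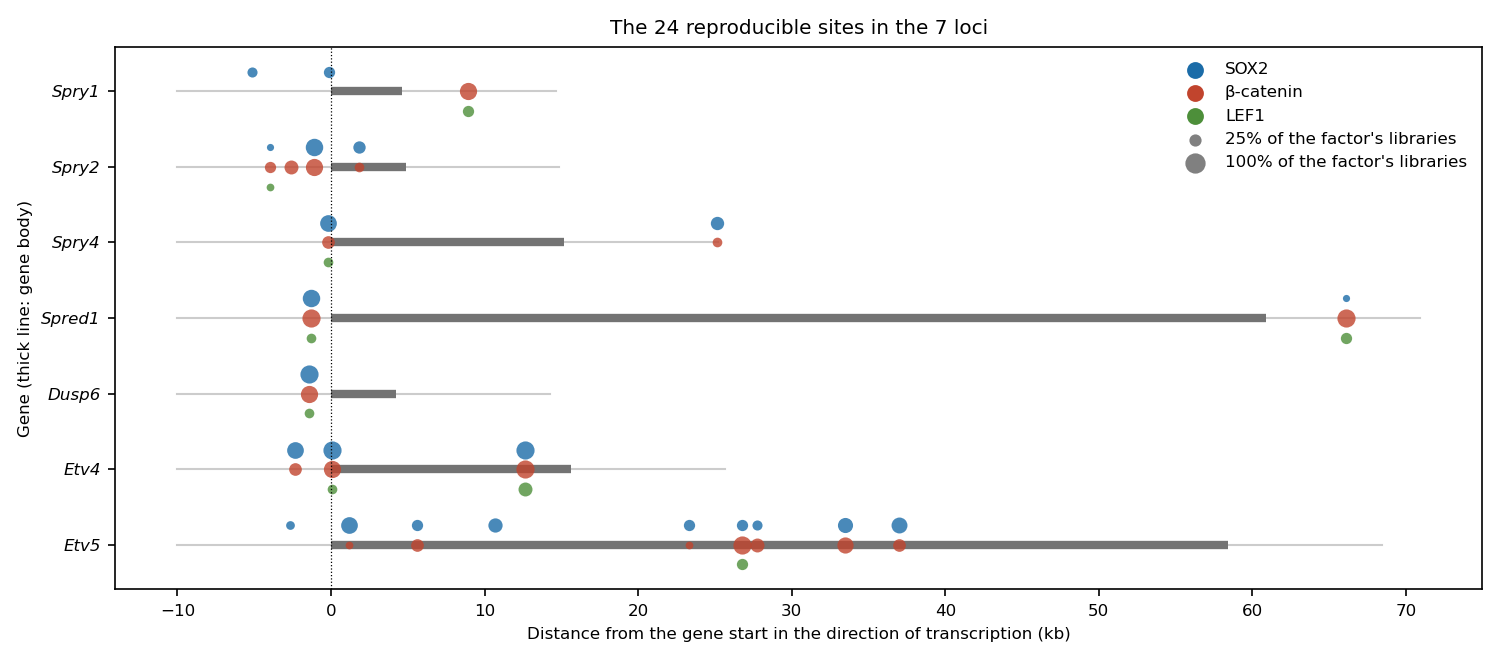
Position of the 24 reproducible sites as the distance in kb of the median summit from the gene start, along the direction of transcription, with the gene body as a thick line and the locus as a thin one. Colour gives the factor and the area of a dot grows with the share of the factor's libraries that called the site.

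Etv4 carried the strongest sites of the set. The site in its intron, 12.6 kb into the gene at chr11:101772063-101773402, was called in 26 of 30 libraries and in all SOX2 and β-catenin libraries. Its β-catenin ranks were 1127, 1201 and 1187 in WT, 727, 903 and 820 in CdxKO and 766, 652 and 788 in T/BraKO. All 6 mutant libraries thus ranked it better than all 3 WT libraries, a split seen in the ranks and not tested. Each mutant was tested against the 6 other β-catenin libraries. The exact permutation p was 0.417 for CdxKO (adjusted 0.788) and 0.0714 for T/BraKO (adjusted 0.378). Fold enrichment over control at the same summits was 18.3, 17.7 and 23.7 in WT, 29.2, 22.3 and 30.6 in CdxKO and 32.8, 29 and 26.2 in T/BraKO, where 1 CdxKO library lay inside the WT range. LEF1 called it in 3 of 3 CdxKO libraries, at ranks 330, 1379 and 1776, in 1 of 3 WT and in 1 of 3 T/BraKO libraries. The SOX2 ranks were between 1236 and 7701 over 12 libraries, and the groups overlapped. This was the leading site of Etv4 for β-catenin and for LEF1.

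At the Etv4 start, chr11:101784156-101786105, SOX2 had its best geometric mean rank over the 9 CHIR libraries in any of the 7 loci, 885.1. The ranks were 3318, 779 and 601 in WT CHIR, 615, 613 and 349 in CdxKO, 2130, 414 and 1849 in T/BraKO and 857, 1617 and 1990 in WT noCHIR. The groups overlapped, and all 12 SOX2 libraries called the site. β-catenin called it in 8 of 9 libraries at ranks between 1754 and 13630. Another gene, Dhx8, reaches into the 3′ end of this locus and overlaps neither of these peaks.

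Dusp6, the ERK phosphatase, was called by SOX2 in all 12 libraries over a region that runs across its start, chr10:99261160-99263413. The SOX2 ranks were 1124, 12041 and 2259 in WT CHIR, 3902, 1214 and 1893 in CdxKO, 2043, 10420 and 1629 in T/BraKO and 5498, 5759 and 2324 in WT noCHIR. No group stood apart. β-catenin ranks were 5368 and 13331 in the 2 WT libraries that called it, 7511, 4376 and 13256 in CdxKO and 4721, 3288 and 4885 in T/BraKO. The T/BraKO ranks lay better than those of both other genotypes with 1 CdxKO exception. LEF1 called the region in 2 of 3 WT libraries, at ranks 6901 and 796, and in none of the 6 mutant libraries. All 6 mutant lists held a LEF1 peak there, past the limit of 20000. Its mean fold enrichment was 4.5 ± 0.68 (SD, n = 3) in CdxKO and 5.66 ± 0.521 in T/BraKO, beside 7.83 ± 2.63 in WT. Called in too few libraries, the region did not enter the rank test for LEF1.

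Spred1 had 2 sites of different make-up. The one 1.31 kb before its start, chr2:117119422-117120862, was called in 11 of 12 SOX2 libraries, all but 1 of WT CHIR, and in all 9 β-catenin libraries at ranks from 1673 to 5548. The one behind the gene, 66.1 kb from the start at chr2:117187239-117187822, was called in all 9 β-catenin libraries, at ranks 1923, 2921 and 3057 in WT, 1910, 3130 and 1019 in CdxKO and 1368, 2622 and 1376 in T/BraKO. It was called in 1 of 12 SOX2 libraries and in 3 of 9 LEF1 libraries. The β-catenin groups overlapped at both sites.

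Among the Sprouty genes, Spry1 had a β-catenin site behind the gene, 8.89 kb from the start at chr3:37648436-37649001. The ranks were 1316, 1973 and 2034 in WT, 515, 2922 and 1275 in CdxKO and 2065 and 3191 in the 2 T/BraKO libraries that called it. The remaining T/BraKO library had a peak there at rank 99610. No SOX2 library called it, and LEF1 called it in 1 of 3 libraries of each genotype. Spry2 was bound 1.08 kb before its start, chr14:105897177-105898368, by SOX2 in 11 of 12 libraries and by β-catenin in 8 of 9. Spry4 was called at its start by SOX2 in 1 of 3 WT CHIR libraries and in 3 of 3 of each other group. The WT CHIR ranks there were 28179, 22960 and 2270, so that 2 libraries fell past the limit of 20000, and the other groups lay between 1803 and 11458. The best-ranked β-catenin site of Spry4, 23.9 kb from the start, was called in a single library, as was the best-ranked LEF1 site of Spry2, 6.11 kb from its start. The best-ranked SOX2 site of Spry1, 0.126 kb before the start, was called in 4 of 12 SOX2 libraries.

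At 3 of the intronic sites of Etv5 no SOX2 WT CHIR library called a peak while all 3 WT noCHIR libraries did. At 37 kb into the gene, chr16:22402455-22403297, the SOX2 ranks were 8319, 16721 and 11080 in CdxKO, 7997, 14089 and 8728 in T/BraKO and 15083, 8204 and 7240 in WT noCHIR. The WT CHIR libraries had peaks there at ranks 645566, 219678 and 21145, past the limit in all 3, and 1 of them close to it. At 33.4 kb, chr16:22405923-22406630, 1 WT CHIR library had a peak, at rank 35405, and the 9 other libraries ranked between 2124 and 29387. At 10.7 kb, chr16:22428724-22429208, the WT noCHIR ranks were 7458, 6235 and 10698, and 2 WT CHIR libraries had peaks at ranks 59842 and 122676. A site in a coding exon, 26.8 kb in at chr16:22412327-22413444, differed from these. β-catenin called it in 9 of 9 libraries, at ranks between 1141 and 17762. SOX2 called it in 3 of 3 T/BraKO libraries, at ranks 6043, 2494 and 1316, in 1 of 3 WT CHIR libraries, at rank 9086, and in none of CdxKO or WT noCHIR. The best-ranked SOX2 site of Etv5, 1.15 kb into the gene at chr16:22438141-22438980, was called in 10 of 12 SOX2 libraries, 2 of them WT CHIR, and the groups overlapped.

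**Figure D3:**
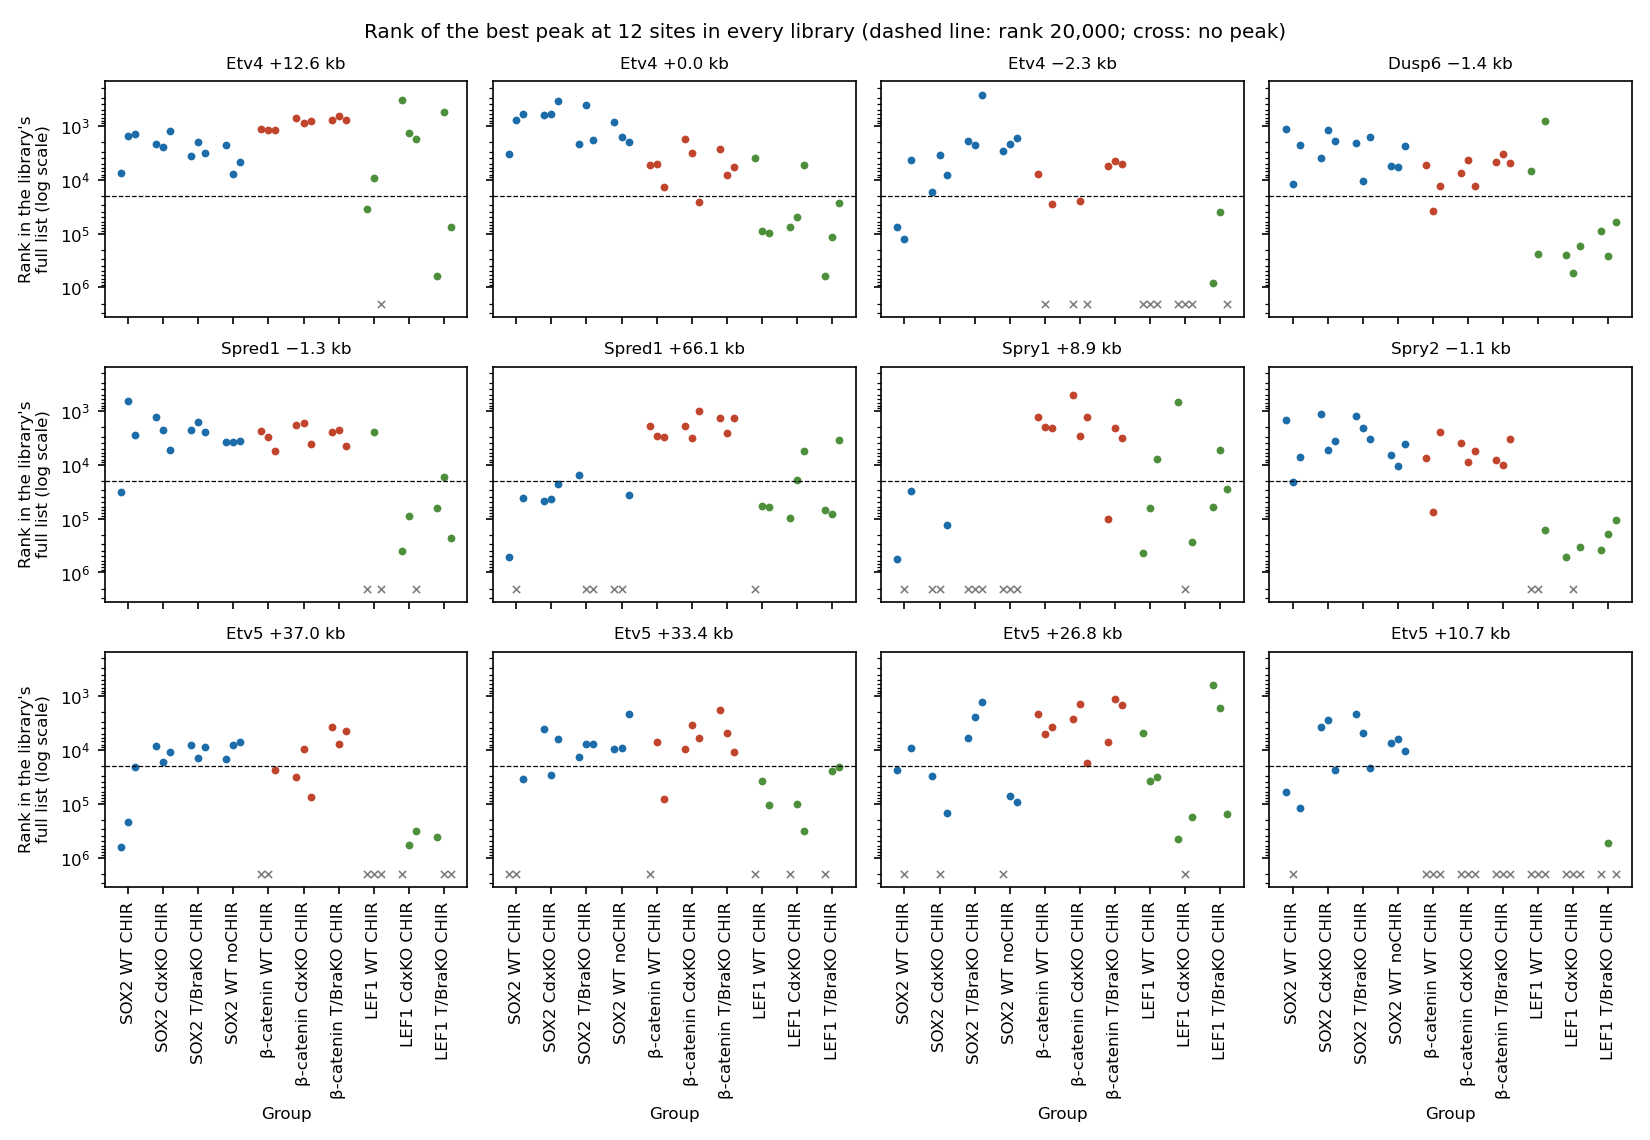
Rank of the best peak of each full list (y axis, log scale, best at the top) at 12 sites named by gene and distance from its start, with 3 libraries per group on the x axis and colour for the factor. Points under the dashed line at rank 20000 are not called and crosses mark libraries with no peak. The WT CHIR points at Etv5 +37.0 kb lie below the line, and the β-catenin points at Etv4 +12.6 kb lie close together near rank 1000.

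SOX2 had fewer called peaks in the 7 loci in WT CHIR cells than in every other SOX2 group. The totals were 8, 9 and 14 in WT CHIR, 20, 22 and 22 in CdxKO, 19, 22 and 20 in T/BraKO and 23, 18 and 16 in WT noCHIR. WT CHIR overlapped with none of these groups. The means were 10.3 ± 3.21 (SD, n = 3), 21.3 ± 1.15, 20.3 ± 1.53 and 19 ± 3.61. Each of the 3 differences, -11 against CdxKO, -10 against T/BraKO and -8.67 against WT noCHIR, had p = 0.1 in a two-sided exact permutation test, the smallest that 3 against 3 libraries allow, and an adjusted p of 0.175 over 7 comparisons. Among the 5000 best peaks the differences were -2 against CdxKO (exact permutation p = 0.4), -3 against T/BraKO (p = 0.3, exact) and 0 against WT noCHIR (p = 1, exact). Etv5 had 2, 0 and 4 of the WT CHIR peaks and 4 to 8 in the other SOX2 libraries. The full lists turned the direction, with 180, 70 and 83 peaks in WT CHIR and 26 to 94 elsewhere. The WT CHIR lists held 205833 to 1008922 peaks and the other SOX2 lists 26940 to 266820.

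This difference moved with the share of called peaks in reproducible sites over the whole genome. All called peaks of the 7 loci, in reproducible sites or not, were set against the library's called peaks in reproducible sites. Per 1000 of the latter, the 7 loci held 1.43, 1.66 and 1.34 in WT CHIR and 1.65, 1.7 and 1.92 in CdxKO. The values were 2.06, 1.75 and 1.56 in T/BraKO and 1.48, 1.19 and 1.24 in WT noCHIR. On this scale, which was added after the data were seen, WT CHIR was higher than WT noCHIR by 0.172 (exact permutation p = 0.3) and lower than CdxKO by a difference of -0.28 (p = 0.2, exact) and than T/BraKO by one of -0.315 (p = 0.2, exact), and it overlapped with all 3 groups. In the number of sites found in at least 2 of 3 libraries, the members had 6 in WT CHIR and 14, 14 and 15 in the other groups, or 1.05, 1.23, 1.33 and 0.999 per 1000 such sites of the genome. The number of such sites over the genome was 5694 in WT CHIR and 11348, 10558 and 15008 in the other groups. Counted alone, the peaks of the 7 loci in reproducible sites were 6, 5 and 12 of 5603, 5420 and 10460 in WT CHIR. In CdxKO they were 14, 18 and 14 of 12130, 12949 and 11463. In T/BraKO they were 15, 17 and 18 of 9229, 12570 and 12807. In WT noCHIR they were 19, 18 and 14 of 15494, 15179 and 12895. From these matched counts the WT CHIR rates lay below those of T/BraKO, narrowly below those of CdxKO, and overlapped with WT noCHIR. Their rates were not tested. The scale before counts peaks outside reproducible sites for the 7 loci but not for the genome. It therefore cannot decide whether the 7 loci followed the genome.

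β-catenin had 14, 16 and 15 called peaks in WT, 14, 19 and 15 in CdxKO and 18, 20 and 21 in T/BraKO. T/BraKO lay above all WT libraries and overlapped with CdxKO. The mean of T/BraKO, 19.7 ± 1.53 (SD, n = 3), was 4.17 above that of the other 6 libraries, 15.5 (two-sided exact permutation p = 0.0238, adjusted p = 0.143 over 6 tests). Per 1000 called peaks in reproducible sites the difference was 0.0628 (exact p = 0.571). This rate counted all called peaks of the member loci, in reproducible sites or not. The genome-wide share in reproducible sites was 61.4% to 68.2% in T/BraKO and 47.3% to 61.6% in the other 6. Counted alone, the member peaks in reproducible sites were 16, 18 and 18 of 13649, 12273 and 12830 in T/BraKO. In WT they were 13, 11 and 14 of 12322, 10005 and 9459. In CdxKO they were 11, 17 and 10 of 11141, 11339 and 9739. The rates from these counts were not tested. LEF1 had 5, 3 and 6 peaks in WT, 5, 5 and 8 in CdxKO and 4, 11 and 5 in T/BraKO, and the groups overlapped. The exact permutation p of the 3 LEF1 and CdxKO β-catenin comparisons with WT was between 0.6 and 0.9.

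**Figure D4:**
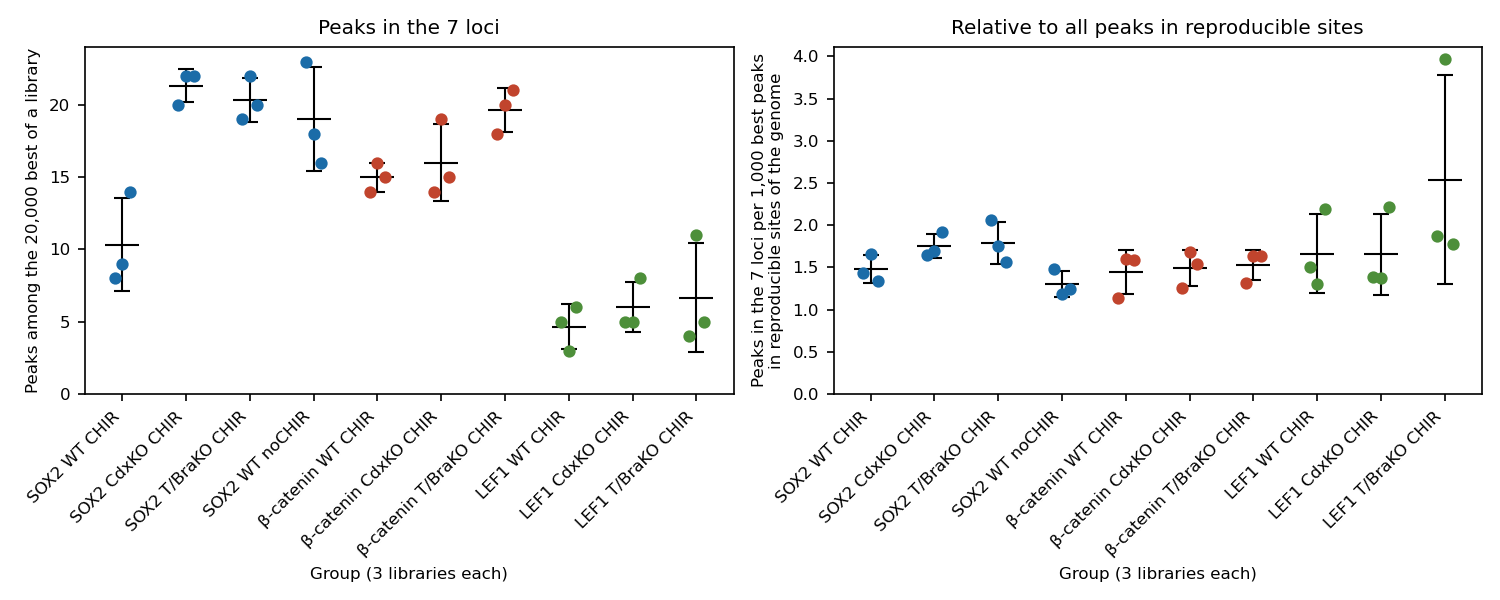
Called peaks in the 7 loci for each library (left) and the same per 1000 called peaks in reproducible sites of the genome (right), both axes from 0, with points for libraries and lines for the mean and SD of 3. On the left SOX2 WT CHIR, at 8 to 14, lies below the other SOX2 groups. On the right its points, 1.34 to 1.66, lie among theirs. The count on the right includes peaks of the 7 loci that lie outside reproducible sites. The number it is divided by does not. With both limited to reproducible sites, WT CHIR lay below T/BraKO and, narrowly, CdxKO, and overlapped with WT noCHIR, which was not tested.

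Sites called in all 3 libraries of one group and in none of the other were few. Without CHIR, SOX2 had 4 such sites in the member loci, out of 34 called in either WT group, at Spry2 1.83 kb into the gene and at Etv5 10.7, 33.4 and 37 kb in. This was 11.8%, beside 3.9% of all sites, and none lay in the reverse direction, beside 0.149%. Against CdxKO, SOX2 had 1 of 45 sites in the mutant only, Etv5 at 37 kb (2.22%, beside 0.961%), and 0 in WT only (background 0.0633%). Against T/BraKO it had 2 of 38, Etv5 at 37 and 33.4 kb (5.26%, beside 0.719%), and 0 in WT only (background 0.0463%). These SOX2 comparisons share the WT CHIR libraries, so the Etv5 sites are not independent findings. In the full lists at least 1 WT CHIR library had a peak at each of these sites. The full lists then held 1 of 63 sites without CHIR only, Spry1 5.12 kb before the start, beside 1.53% of all sites. They held 1 site in WT CHIR only, Spred1 41.7 kb into the gene, against each of WT noCHIR, CdxKO and T/BraKO, beside 0.717%, 0.534% and 0.656%. They held 0 in either mutant only, beside 0.401% for CdxKO and 0.174% for T/BraKO. Among the 5000 best peaks no member site was in 1 SOX2 group only, and 6.31% of all sites were in WT noCHIR only.

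For β-catenin, WT and CdxKO differed at 1 of 36 sites, in the Etv5 intron at 27.8 kb, chr16:22411733-22412255. It was called in all 3 WT libraries, at ranks 19543, 18987 and 5910, and no CdxKO list held a peak there. That is 2.78%, beside 0.52% of all sites, and 0 sites were in CdxKO only (background 0.317%). Of the WT ranks, 2 lay close to the limit of 20000. WT and T/BraKO differed at 1 of 31 sites, again Etv5 at 37 kb, called in T/BraKO only at ranks 3777, 7641 and 4398. That is 3.23%, beside 0.827%, and 0 sites were in WT only (background 0.613%). The full lists held 2 sites in WT only against CdxKO, beside 0.679%, and 0 in T/BraKO only, beside 0.441%, since 1 WT list had a peak at Etv5 37 kb at rank 23545. LEF1 had no such site in the member loci against either mutant, and the backgrounds were 0.0348% in WT only and 0.101% in CdxKO only, and 0.0961% in WT only and 0.0305% in T/BraKO only. Among the 5000 best peaks, LEF1 had 1 of 7 member sites in CdxKO only, beside 0.259% of all sites. β-catenin then had 1 of 14 in T/BraKO only, beside 1.35%, and 0 of 14 in WT only against CdxKO, beside 2.08%. With counts of 0 to 4 sites, the shares of the members rest on single sites.

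**Figure D5:**
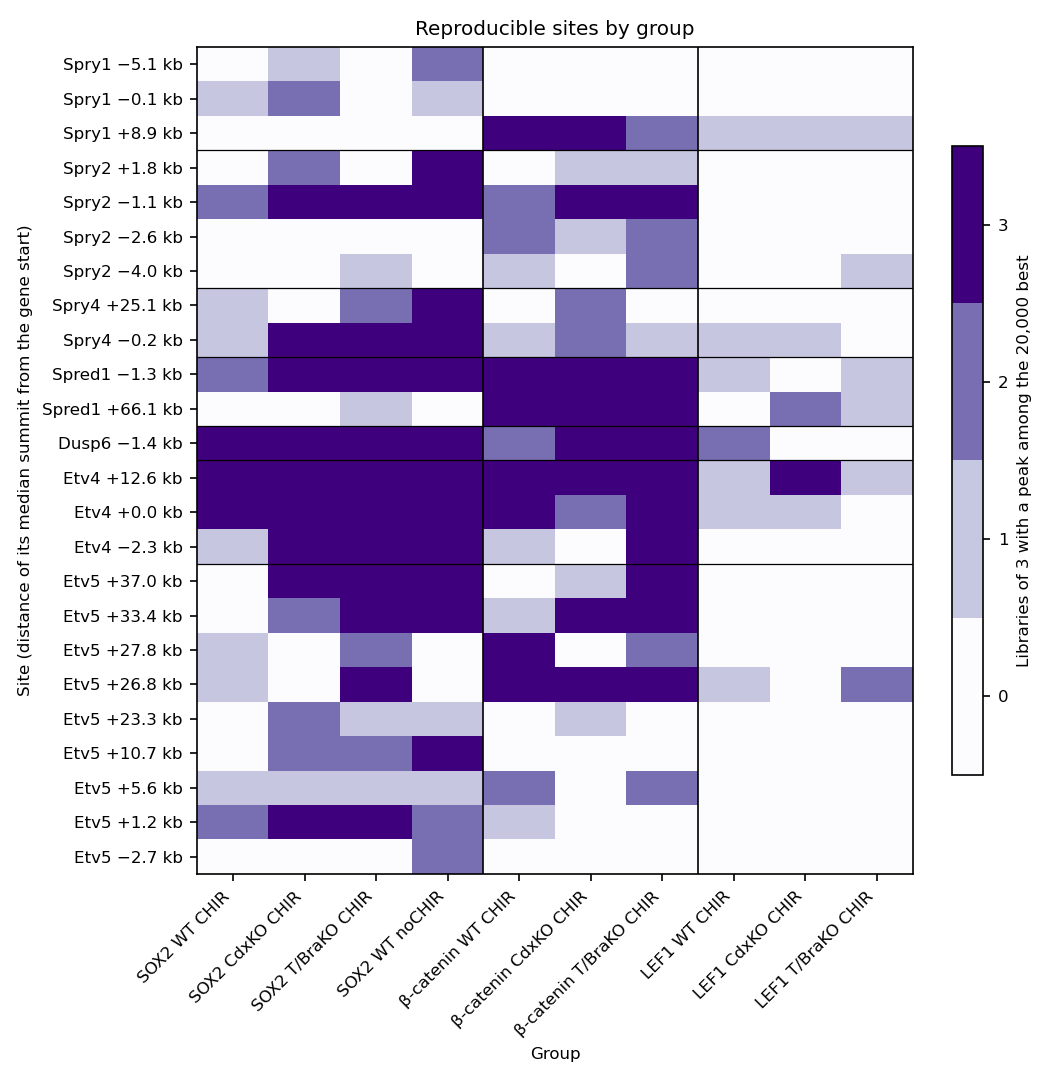
Number of libraries of 3 that called each of the 24 reproducible sites, with sites as rows, named by gene and distance from its start, and the 10 groups as columns. The Etv4 sites at +12.6 and +0.0 kb and the Dusp6 site are dark in all SOX2 columns, and the Etv5 site at +37.0 kb is blank in SOX2 WT CHIR and β-catenin WT CHIR.

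In a test of ranks over all sites of a factor, no member site passed at an adjusted p under 0.05 in any of the 6 tests of a mutant against the 6 other CHIR libraries, and neither did any other site. With 84 assignments the exact permutation p cannot go below 0.0119, and the lowest adjusted p over the genome was 0.153. At an unadjusted p under 0.05, β-catenin in T/BraKO had 3 of 16 member sites (18.8%, beside 14.6% of all sites tested) and SOX2 in T/BraKO 2 of 17 (11.8%, beside 4.61%). LEF1 in CdxKO had 1 of 4 (beside 5.99%). SOX2 in CdxKO had 0 of 17 (beside 6.63%), β-catenin in CdxKO 0 of 16 (beside 9.19%) and LEF1 in T/BraKO 0 of 4 (beside 4.46%). With log2 fold enrichment in place of rank, these 6 counts were 2, 1, 0, 0, 1 and 0, beside 13.9%, 3.88%, 6.82%, 6.31%, 9.51% and 7.03% of all sites tested. Among the 5000 best peaks the β-catenin count in T/BraKO was 0 of 9, beside 19.7%.

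The site 2.32 kb before the Etv4 start, chr11:101787319-101788371, was better ranked in T/BraKO for both SOX2 and β-catenin. The SOX2 ranks were 1911, 2265 and 271 in T/BraKO, 17052, 3519 and 8017 in CdxKO and 74426, 123920 and 4349 in WT CHIR, and T/BraKO overlapped with neither (difference of log10 ranks -0.964, exact permutation p = 0.0119, adjusted p = 0.686). WT noCHIR, which was not in this test, had ranks of 2881, 2171 and 1698, within the range of T/BraKO but for 1 library. The β-catenin ranks were 5488, 4421 and 5176 in T/BraKO, and 1 of the other 6 libraries called the site, at rank 7879 (difference -0.534, exact permutation p = 0.0119, adjusted p = 0.153). The same p values were found for SOX2 at the Etv5 exon site (difference -0.811, exact, adjusted 0.686) and for β-catenin at Etv5 37 kb (difference -0.546, exact, adjusted 0.153). The Etv4 intron site was better ranked by LEF1 in CdxKO (difference -1.01, exact permutation p = 0.0357, adjusted p = 0.668) and the Spry1 downstream site was worse ranked by β-catenin in T/BraKO (difference 0.539, exact permutation p = 0.0357, adjusted p = 0.277), the latter resting on the library with rank 99610.

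SOX2 and β-catenin met at a large part of their sites in these loci. In WT CHIR cells 5 of the 6 SOX2 sites found in at least 2 of 3 libraries were also β-catenin sites, the starts of Spry2, Spred1, Dusp6 and Etv4 and the Etv4 intron. That is 83.3% of the SOX2 and 45.5% of the 11 β-catenin sites, beside 48.2% and 28.4% over the genome. In CdxKO 7 sites were shared, 50% of 14 and 63.6% of 11, and in T/BraKO 10, or 71.4% of 14 and 66.7% of 15. Over the genome the shares were 36.5% and 41.2% in CdxKO and 47% and 39.4% in T/BraKO. Only the Dusp6 region joined all 3 factors in WT, and there the median summits of the factors did not lie within 200 bp of each other. Of the 5 shared WT sites, 3 had SOX2 and β-catenin summits within 200 bp, at Spry2, Spred1 and the Etv4 intron. That is 60%, beside 85.1% of the 2746 shared sites of the genome.

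Motifs were searched on both strands of the 200 bases round the mean summit. TCF/LEF letters (CTTTGAA or CTTTGAT) stood at 8 of the 17 β-catenin sites of the members, 47.1%, beside 37.8% of all 17085 reproducible β-catenin sites, and at 3 of the 19 SOX2 sites, 15.8%, beside 14.2% of 21676. SOX letters (CCATTGT or CCTTTGT) stood at 6 of the 19 SOX2 sites, 31.6%, beside 28.9%, and at 3 of the 17 β-catenin sites, 17.6%, beside 15.8%. The member sites were thus close to all sites in both. The TCF/LEF letters were found, among others, at the distal β-catenin sites behind Spry1 and Spred1 and in the Etv4 intron, and SOX letters at the Etv5 sites 10.7 and 33.4 kb in but not at 37 kb. Of the 24 sites, 1 held the ETS letters CCGGAAG, 2.6 kb before Spry2, and 3 held CDX letters (CCATAAA or CAATAAA or TCATAAA or TAATAAA), beside 1.81% and 11.1% of all reproducible sites. None held the T-box letters AGGTGTGA, beside 1.37%. In the 200 bases with the most summits, chosen after seeing the data, SOX letters stood at 7 of the 19 SOX2 sites (36.8%, beside 30.6%). TCF/LEF letters then stood at 7 of the 17 β-catenin sites (41.2%, beside 39.3%) and CDX letters at 4 of the 24 sites (16.7%, beside 11.1%). The site at the Etv4 start held SOX letters in this window and not round its mean summit. The motifs overlap in part, since CTTTGAT and CCTTTGT share the run CTTTG, and a match is not a measured binding site.

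The other genes of the pathway were counted in the same way. For SOX2, the genes with a called peak in at least 2 of 3 libraries numbered 7 to 9 of 11 FGF ligands over the 4 groups, 2 to 3 of 5 receptors, where Fgfr1 was in every group, and Fgfr2 too, whose annotated locus is so long that it held 46.9 called peaks per library, and 9 to 13 of 18 genes of the cascade from the receptor to ERK. They numbered 7 to 9 of 11 other feedback genes, with Spred2, Il17rd, Dusp4 and Dusp5 in every group, and 9 to 11 of 15 other effectors, among them Etv1, Fos and Myc. For β-catenin the counts were 9 to 10, 4, 8 to 12, 9 to 10 and 10 to 12 of the same lists, and for LEF1 6 to 9, 2 to 3, 6 to 11, 4 to 7 and 6. A comparison list of 12 WNT feedback genes, which includes Axin2 and Sp5, had 11 with a SOX2 peak and 11 with a β-catenin peak in every group, and 8 to 11 for LEF1. The shares of all genes are those given above for each group.

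The genes whose peak numbers followed the summed number of the 7 loci most closely over the 30 libraries were Gadd45g (Pearson r = 0.868), Ubtf (0.866) and Olfr90 (0.849). The libraries differ by factor and by list, which all genes share. Within the 12 SOX2 libraries r was 0.746, 0.887 and 0.816, and within the 9 β-catenin libraries -0.0395, 0.49 and 0.562. Within the 9 LEF1 libraries it was 0.384, 0.175 and 0.729.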

How the data were processed

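Chromatin from 30 immunoprecipitations was profiled by ChIP-seq; the 12 input samples of the 42 in the series were not analysed here. Each deposited peak list, made by the authors with MACS2 on mm10 per the submitters' processing notes, gives for every peak a fold enrichment over control (a ratio), a −log10 p-value, a −log10 q-value, a display score that the authors' caller derives from the q-value, and the summit. Peaks were called per library. The input that served as control was not found in the labels or methods, the lists hold no read counts, and the depth behind a peak is unknown, so no count model was fitted and no interval is given. That the deleted genes are absent cannot be checked in peak lists.

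Peaks were ranked by q-value, then p-value, fold enrichment and position, and the 20000 best of each list were kept. Gene bodies came from the GENCODE M21 basic annotation of GRCm38. Sites are called peaks of all 30 lists merged at 1 bp overlap. Differences were tested with two-sided exact permutation tests, Benjamini-Hochberg adjusted over 7 comparisons, 6 tests or all sites. For the rank test, sites called in at least 3 of 9 CHIR libraries entered, and a library without a called peak got rank 20001. The test was checked on simulated ranks. Computations used Python 3.11.15, numpy 2.4.6 and pandas 2.3.3.

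Sites named are the leading site of each gene and factor by mean log10 rank, those called in 3 against 0 libraries and those past the rank test. The site 2.32 kb before Etv4, the Spry1 site 5.12 kb before its start and the Spred1 site at 41.7 kb were named after their values were seen. The members and lists were chosen with earlier results of these data known. Replicates are separate biological replicates per the labels. Alternatives covered list length, ranking, locus, merging and left-out libraries.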

Additional observations from a re-analysis of the deposited data

How the results depend on the processing

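Differences are in mean called peaks in the 7 loci, first group minus second, with exact permutation p-values as given. With the full lists, SOX2 WT CHIR was above WT noCHIR by 54.3, CdxKO by 50.3 and T/BraKO by 54.3, β-catenin WT was above CdxKO by 30 and T/BraKO by 24.7, and against the other genotypes SOX2 CdxKO was at -23.2, SOX2 T/BraKO at -29.2 and β-catenin T/BraKO at -9.67; the lists differ in length. With 5000 peaks, SOX2 WT CHIR against WT noCHIR was 0, against CdxKO -2 and against T/BraKO -3 (exact p = 1, 0.4 and 0.3), from -8.67, -11 and -10, and LEF1 WT against CdxKO was 0.333, β-catenin CdxKO against the others 0.667, LEF1 CdxKO -0.5 and β-catenin T/BraKO 1.67 (exact p = 0.226). With 50000 peaks, or all of a shorter list, β-catenin WT against CdxKO was 0.333, LEF1 WT against CdxKO 2.33, LEF1 CdxKO against the others -4.17 and β-catenin T/BraKO 4.5 (exact p = 0.0833). Ranking by fold enrichment put LEF1 CdxKO at -0.167. In the gene body alone, β-catenin WT against CdxKO was 1.67 and β-catenin T/BraKO against the others 1.17. Per 1000 called peaks in reproducible sites, chosen after seeing the data, SOX2 WT CHIR against noCHIR was 0.172, LEF1 WT against CdxKO 0.00272, β-catenin CdxKO against the others 0.00643, LEF1 CdxKO -0.441 and β-catenin T/BraKO 0.0628. This rate takes all called peaks of the 7 loci, in reproducible sites or not, but only those in reproducible sites for the genome. The causes were not tested.

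Leaving out 1 library gave 3.5 to 5 for β-catenin T/BraKO against the others (exact p 0.0179 to 0.0714, over 0.05 without WT 1, 2 or 3, CdxKO 1 or 3, or T/BraKO 2 or 3), -2 to 0.5 for β-catenin WT against CdxKO, -3.33 to 0.167 for LEF1 WT against T/BraKO, -0.833 to 2.67 for LEF1 T/BraKO and -0.667 to 1.4 for LEF1 CdxKO against the others. The LEF1 T/BraKO results turned without T/BraKO 2, β-catenin WT against CdxKO without CdxKO 2, and LEF1 CdxKO without WT 2 or CdxKO 3. SOX2 WT CHIR stayed below each other SOX2 group, at -12.8 to -6.67. Summit position, a 50 kb extension and peaks per 1000 in coding loci left all 13 directions and sides of the threshold as they were.

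With the replicate number as a block, β-catenin T/BraKO against the others had an exact permutation p = 0.037 and each SOX2 WT CHIR comparison p = 0.25, the smallest that 8 assignments allow. None of the 13 results changed its side of the threshold. Same-numbered replicates did not deviate together (r between -0.131 and 0.136), and the numbers were not taken to pair the samples.

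Counts of member sites also moved. Sites of all 3 factors in WT were 9 with the full lists, 6 with 1 of 3 libraries and 0 with summits within 200 bp, against 1; over the genome they were 5453, 2555 and 569, against 698.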
